A study of Mus musculus with 8 samples.

Results

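The 8 genes described here encode proteins that position, move or sort melanosomes, the pigment organelles of melanocytes, or that sit on related vesicles: the small GTPases Rab27a, Rab32 and Rab38, the linker Mlph, the motor Myo5a, the Rab27 effector Sytl2, and Mreg and Syngr1. They were picked by gene symbol, and all 8 were found among the 24421 genes of the table. The samples came from 4 C57BL/6J mice of the labelled genotype ROSA<mTmG> +; Cre+, in which a membrane tdTomato reporter switches to membrane EGFP once Cre recombinase has acted. The series' design names the Cre as Tyr:Cre<ERT2>, which is driven by tyrosinase regulatory sequence and needs tamoxifen, so only cells that used that promoter around the injections, and their descendants, carry EGFP. All 4 mice had tamoxifen for 10 days from postnatal day 21, were depilated on day 50 and gave back skin on day 54. Mice 3 and 4 had UVB at 150 mJ/cm2 for 3 days, and mice 1 and 2 were mock treated. EGFP+ cells, labelled melanocytes, and tdTomato+ cells, labelled other skin cells, were sorted from each mouse. The 4 groups of 2 libraries were therefore UV EGFP+, no UV EGFP+, UV tdTomato+ and no UV tdTomato+, and within each group replicates 1 and 2 are different mice.

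In melanocytes, Rab27a bound to GTP sits on the mature melanosome and recruits melanophilin, the product of Mlph, which in turn binds myosin Va, an actin motor made from Myo5a. This complex holds pigment granules at the cell periphery, and loss of any of its parts gives mice with diluted coat colour. Rab32 and Rab38 act earlier, in the delivery of pigment enzymes from endosomes to immature melanosomes, and are switched on by the complex of Hps1 and Hps4. Sytl2 is a further Rab27 effector, which docks vesicles at the plasma membrane. Mreg, melanoregulin, is the gene of the dilute suppressor mutation, which alters the pigment phenotype of mice that lack parts of the myosin complex. Syngr1 encodes synaptogyrin, a membrane protein best known from synaptic vesicles.

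The libraries held 11186363 to 16711981 reads and 11186 to 17076 detected genes, with the fewest genes in UV EGFP+ replicate 2. Mouse 1 gave 477 and 1103 reads of Xist, which females transcribe from 1 of their X chromosomes, while no library of mice 2, 3 or 4 had over 4. The no UV mice thus differed from each other in sex. The summed level of 10 melanocyte markers was 535648 to 630200 normalized reads in EGFP+ libraries and 2675 to 45527 in tdTomato+ libraries, and each of the 10 was higher in EGFP+ cells by limma over all mice. That of 8 keratinocyte markers was 678 to 974 in EGFP+ libraries, against 259314 to 384097 in tdTomato+ libraries. Markers of 4 further cell types were also measured. Fibroblast markers summed to 10.1 to 246 in EGFP+ and 8276 to 17429 in tdTomato+ libraries, leukocyte markers to 5.39 to 323 and 1491 to 11951, endothelial and mural markers to 0 to 4.75 and 127 to 718, and Schwann cell markers to 5762 to 10064 and 405 to 1613. Of 18070 genes tested, 28.9% differed between EGFP+ and tdTomato+ cells over all mice by the adjusted p of 0.05 used as threshold, with 1746 of them higher in EGFP+ cells and 3471 lower. That split was 2857 higher and 2672 lower with quantile normalization, which moved the median of all genes by 0.45 log2 units, and 2634 higher and 2877 lower after rescaling without the 20 most abundant genes, which moved it by 0.23. The changes below are on the log2(normalized reads + 1) scale with standard errors from limma. The p-values rest on the spread between 2 mice a group, pooled over the 4 groups and moderated across genes. The main fit did not pair the EGFP+ and tdTomato+ libraries of a mouse.

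The 3 parts of the tethering complex were all far higher in EGFP+ cells, in every mouse. Rab27a had 1349.9 and 1208 normalized reads in the UV EGFP+ libraries and 1282 and 1181 in the no UV EGFP+ libraries, against 52.2 and 70.5 in UV tdTomato+ and 64.6 and 35.7 in no UV tdTomato+ libraries. The 4 EGFP+ values lay close together and far above all 4 tdTomato+ values, a difference of 4.51 ± 0.28 (SE) log2 units or 22.8-fold (limma adjusted p = 1.38e-05). In these pools of cells a higher level can come from more cells that make the transcript or from more RNA in each, and the 2 cannot be told apart. Mlph had 2138 and 2361 in UV EGFP+ and 1426 and 1153 in no UV EGFP+ libraries, against 78.8 and 148 in UV tdTomato+ and 9.78 and 9.99 in no UV tdTomato+ libraries. Its tdTomato+ values fell into separate levels by UV, and the difference between the sorted populations, 5.62 ± 0.29 or 49.3-fold (limma adjusted p = 4.89e-06), was the highest of the 8 genes. The authors' deposited log2 fold change of Mlph was smaller, at 4.68. It is a DESeq2 estimate over all libraries, an unlike measure to the mean of the differences in UV and no UV mice given here. Myo5a had 4265 and 5960 in UV EGFP+ and 4224 and 6102 in no UV EGFP+ libraries, against 468 and 672 in UV tdTomato+ and 446 and 389.7 in no UV tdTomato+ libraries. It was higher by 3.38 ± 0.20 or 10.4-fold (limma adjusted p = 1.08e-05), and replicate 2 was the higher EGFP+ library in both arms.

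**Figure D1:**
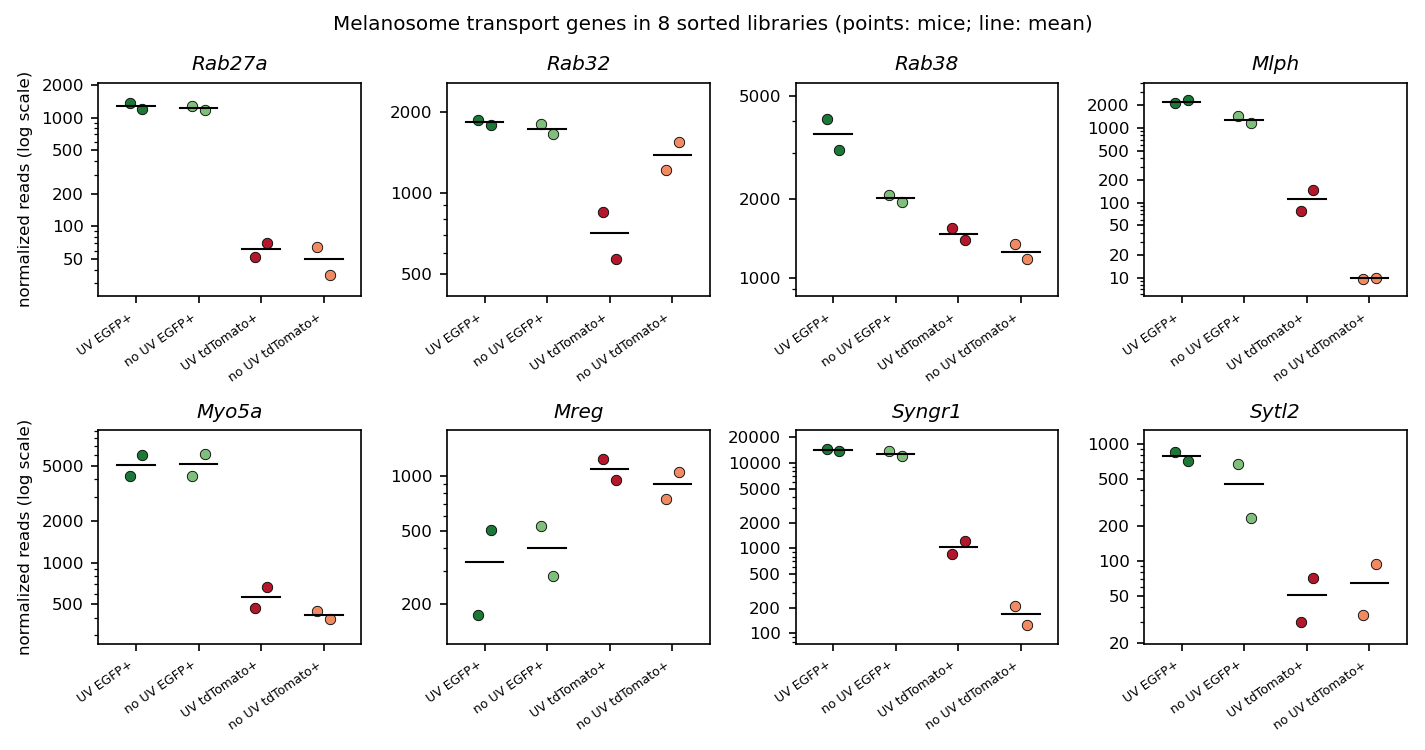
Normalized reads on a log10 axis for each of the 8 genes, with 1 point per library in the groups UV EGFP+, no UV EGFP+, UV tdTomato+ and no UV tdTomato+. Rab27a sits between 1181 and 1349.9 in EGFP+ libraries and at or below 70.5 in tdTomato+ libraries, while Mreg is the one gene whose EGFP+ points all lie below its tdTomato+ points.

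In the mm10 assembly (GENCODE M21) Rab27a lies at chr9:73044854-73097629, Myo5a at chr9:75071015-75223688 and Mlph at chr1:90915085-90951142, all on the plus strand. Rab38 (chr7:88430273-88491572), Sytl2 (chr7:90302252-90410719) and Syngr1 (chr15:80091334-80119501) are also on the plus strand. Rab32 (chr10:10545002-10558265) and Mreg (chr1:72159442-72212307) are on the minus strand. Values are given per gene, how reads were assigned to it was not stated, and the kit does not mark strand. Of the 8 genes only Rab27a shares exon sequence with another annotated gene, Gm27186, over 149 bases or 3.84% of its exon length.

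MITF, the transcription factor after which the series is titled, binds E-box sequences and the related core of the M-box. Promoter entries of RefSeq (GRCm38.p6) were matched for 6 of the 8 genes, and the 250 bases upstream of each start were searched on both strands for the E-box CACGTG, which reads the same on each, and for the M-box core in either direction. The E-box was found in 2 of the 6 genes, Mlph and Rab27a, against 6.86% of 27025 genes and 6.02% of 32851 windows in the whole table. The M-box core (CATGTG) was found in 0 of the 6, against 13.8% of genes. The 2 matches lie in genes of the tethering complex, and they are printed beside the window of Mreg, the gene lower in EGFP+ cells, which holds neither motif. Neither motif was found for Myo5a of the same complex, or for Rab32 and Syngr1, which were also higher in EGFP+ cells. Of the 250 bases searched, 191 of Myo5a and 58 of Rab32 lay in annotated exons, so less sequence upstream of those exons was searched. Rab38 and Sytl2 had no promoter entry. The windows are chr1:90914850-90915099 on the plus strand for Mlph, chr9:73063898-73064147 on the plus strand for the second start of Rab27a, and chr1:72212315-72212564 on the minus strand for Mreg, and capitals mark the E-box.
Mlph: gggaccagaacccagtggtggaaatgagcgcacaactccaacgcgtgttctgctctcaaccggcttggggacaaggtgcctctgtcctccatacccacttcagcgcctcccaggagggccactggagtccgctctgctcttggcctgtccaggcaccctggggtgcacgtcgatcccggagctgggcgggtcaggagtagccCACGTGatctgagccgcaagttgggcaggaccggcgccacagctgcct
Rab27a: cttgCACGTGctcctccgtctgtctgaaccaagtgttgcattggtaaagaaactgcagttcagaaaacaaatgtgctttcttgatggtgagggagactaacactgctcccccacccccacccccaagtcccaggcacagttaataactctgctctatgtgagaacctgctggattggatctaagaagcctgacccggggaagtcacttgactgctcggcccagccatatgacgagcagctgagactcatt
Mreg: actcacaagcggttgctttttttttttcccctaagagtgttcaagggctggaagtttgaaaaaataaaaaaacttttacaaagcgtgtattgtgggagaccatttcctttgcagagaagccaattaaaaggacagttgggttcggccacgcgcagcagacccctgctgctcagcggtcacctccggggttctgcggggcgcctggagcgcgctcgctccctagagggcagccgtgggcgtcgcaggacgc
The match of Mlph begins 48 bases upstream of its start, and the last 15 bases of that window lie in an annotated exon. That of Rab27a begins 246 bases upstream of the second of 2 annotated starts, and the window of the first start holds none. A match of letters is a description of these windows and does not show that a factor binds there.

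Rab32 and Rab38, the GTPases of cargo delivery, were higher in EGFP+ cells by much less. Rab38 had 4064 and 3085 in UV EGFP+ and 2086 and 1950.0 in no UV EGFP+ libraries, against 1557 and 1392 in UV tdTomato+ and 1344 and 1175 in no UV tdTomato+ libraries. All EGFP+ values exceeded all tdTomato+ values, by 0.97 ± 0.15 log2 units or 1.96-fold (limma adjusted p = 0.00141). Rab32 had 1873 and 1799 in UV EGFP+ and 1815 and 1657 in no UV EGFP+ libraries, against 848 and 571 in UV tdTomato+ and 1224 and 1549 in no UV tdTomato+ libraries. The EGFP+ libraries were nearly level, and the no UV tdTomato+ libraries came close to them. The difference was 0.87 ± 0.18 or 1.82-fold (limma adjusted p = 0.00649). In the authors' deposited table, Rab32 had a log2 fold change of 0.77 with an adjusted p of 0.0539, and Rab38 one of 1.03 with 0.00223.

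Syngr1 and Sytl2 stood with the tethering complex. Syngr1 had 14834 and 13764 in UV EGFP+ and 13873 and 12044 in no UV EGFP+ libraries, against 855 and 1214 in UV tdTomato+ and 210.3 and 126 in no UV tdTomato+ libraries. It was higher in EGFP+ cells by 5.06 ± 0.20 or 33.3-fold (limma adjusted p = 1.47e-06), and its tdTomato+ values again separated by UV. The authors' deposited log2 fold change of Syngr1, again an unlike measure, was smaller, at 4.40. Sytl2 had 856 and 720.0 in UV EGFP+ and 677 and 232 in no UV EGFP+ libraries, against 30.2 and 71.4 in UV tdTomato+ and 34.2 and 94.2 in no UV tdTomato+ libraries. No UV EGFP+ replicate 2 was low among the EGFP+ libraries and its partner from the same mouse was the highest tdTomato+ library, yet the populations did not overlap. Sytl2 was higher by 3.41 ± 0.50 or 10.6-fold (limma adjusted p = 0.00131).

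Mreg went the other way. It had 174 and 502 in UV EGFP+ and 527 and 282 in no UV EGFP+ libraries, against 1236 and 941 in UV tdTomato+ and 746 and 1050.5 in no UV tdTomato+ libraries. Every EGFP+ library was below every tdTomato+ library, with a difference of -1.53 ± 0.37 log2 units or 2.89-fold lower (limma adjusted p = 0.0140). Among its EGFP+ values UV EGFP+ replicate 1 was the lowest. The adjusted p passed the threshold without either UV EGFP+ library (0.0140 without replicate 1 and 0.00564 without replicate 2) and missed it without any of the other 6, at 0.0554 without no UV EGFP+ replicate 1, 0.106 without no UV EGFP+ replicate 2, 0.109 without UV tdTomato+ replicate 1, 0.0819 without UV tdTomato+ replicate 2, 0.0908 without no UV tdTomato+ replicate 1 and 0.103 without no UV tdTomato+ replicate 2. In the authors' deposited table Mreg had a log2 fold change of -1.41 with an adjusted p of 0.00150.

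Over all mice, 7 of the 8 genes were thus higher and 1 lower in EGFP+ cells, against 9.66% of all tested genes higher and 19.2% lower. The median difference of the 8 genes was 3.40 log2 units, beside -0.33 for all 18070 genes. The 7 and the 1 were also the genes whose libraries did not overlap, against 9.8% of all genes higher and 18% lower without overlap. Apart from Mreg, each of these calls held in all 8 fits that left out 1 library.

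**Figure D2:**
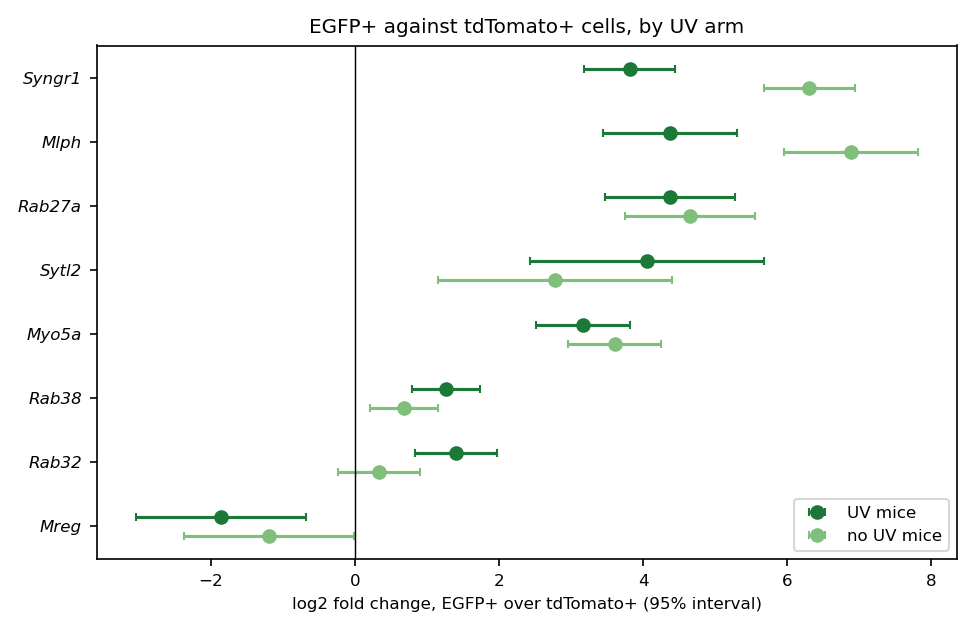
Difference between EGFP+ and tdTomato+ cells for each gene on the log2(normalized reads + 1) scale, in UV mice and in no UV mice, with bars for the 95% interval. Mlph and Syngr1 show a smaller difference in UV mice (4.36 and 3.81) than in no UV mice (6.88 and 6.30), a gap that limma did not call (adjusted p = 0.263 and 0.162), and Mreg lies below 0 throughout.

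Within the UV mice, the same 7 genes were higher and Mreg lower in EGFP+ cells, 7 of 8 against 5.03% of all genes and 1 of 8 against 12.9%. Rab27a was higher by 4.37 ± 0.40, Mlph by 4.36 ± 0.41, Myo5a by 3.17 ± 0.28 and Syngr1 by 3.81 ± 0.28, with limma adjusted p of 0.000298 or less. Sytl2 was higher by 4.05 ± 0.71 (0.00598), Rab32 by 1.40 ± 0.25 (0.00625) and Rab38 by 1.27 ± 0.21 (0.00410), and Mreg stood at -1.86 ± 0.52 (0.0393), all limma adjusted p. Without UV tdTomato+ replicate 2 these were 0.052 for Sytl2 (4.65), 0.0532 for Rab32 and 0.0545 for Rab38, and without UV tdTomato+ replicate 1 that of Sytl2 (3.44) was 0.101. The Mreg call held only without UV EGFP+ replicate 2 (-2.63, 0.0187). It was missed without UV EGFP+ replicate 1 (-1.10, 0.0951), no UV EGFP+ replicate 1 (0.113) or 2 (0.0969), UV tdTomato+ replicate 1 (0.284) or 2 (0.186), and no UV tdTomato+ replicate 1 (0.168) or 2 (0.117). It was also missed with a pseudocount of 0.1 (0.0544), after rescaling without the 20 most abundant genes (0.0542) and in a fit of the UV libraries alone (0.105).

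Within the no UV mice, 5 of the 8 genes were higher and 0 lower in EGFP+ cells, against 6.67% and 12.5% of all genes. Mlph was higher by 6.88 ± 0.41 or 118-fold (limma adjusted p = 2.53e-05), Syngr1 by 6.30 ± 0.28 or 79.0-fold, Rab27a by 4.65 ± 0.40, Myo5a by 3.60 ± 0.28 and Sytl2 by 2.78 ± 0.71 (limma adjusted p = 0.0273). Rab38 stood at 0.68 ± 0.21 with a limma adjusted p of 0.0510, just outside the threshold. It was inside with mouse as a block (0.0496), a stricter filter (0.0390), quantile normalization (0.0232), rescaling (0.0140), edgeR (0.0425) and DESeq2 (0.0309). It stayed outside with no filter, with a pseudocount of 0.1 and in a fit of the no UV libraries alone. Among fits without 1 library, it was inside only when a UV EGFP+ library was left out. Its value ran from 0.59 (without no UV tdTomato+ replicate 2) to 0.78 (without no UV tdTomato+ replicate 1). Rab32 stood at 0.33 ± 0.25 (limma adjusted p = 0.404, 95% interval -0.23 to 0.90) and Mreg at -1.20 ± 0.52 (0.155, and 0.0417 without UV EGFP+ replicate 1). The call of Sytl2 held only without UV EGFP+ replicate 1 (0.0284). Its value was 2.01 without no UV EGFP+ replicate 1, 3.55 without replicate 2, 2.06 without no UV tdTomato+ replicate 1 and 3.50 without replicate 2. The call was missed without UV EGFP+ replicate 2 (0.0505), no UV EGFP+ replicate 1 (0.223) or 2 (0.0716), UV tdTomato+ replicate 1 (0.0689) or 2 (0.0763), and no UV tdTomato+ replicate 1 (0.201) or 2 (0.0682).

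Per kilobase of exon, the 8 genes had a different order in the sorted populations. In EGFP+ libraries Syngr1 averaged 2835 ± 241 normalized reads per kilobase (SD, n = 4), ahead of Rab38 at 1773 ± 625 and Rab32 at 764 ± 39.2. Syngr1 ran from 2505 to 3085 and Rab38 from 1237 to 2577, so that their ranges overlapped. Myo5a (347 ± 69.8), Mlph (330.4 ± 107) and Rab27a (324 ± 19.6) followed with overlapping ranges. Mreg (163 ± 75.2) and Sytl2 (44.6 ± 19.4) were the lowest. In tdTomato+ libraries Rab38 led at 867 ± 99.7 with no overlap, followed by Rab32 at 448 ± 183, Mreg at 435 ± 89.7 and Syngr1 at 125 ± 109. Myo5a (33.4 ± 8.33), Rab27a (14.4 ± 3.96), Mlph (11.5 ± 12.4) and Sytl2 (4.13 ± 2.2) came last (SD, n = 4 each). Neighbours in that order overlapped from Rab32 to Mreg, Syngr1 to Myo5a, and Rab27a through Mlph to Sytl2. The tdTomato+ order differed between the arms. In UV libraries Mreg averaged 477 ± 91.3, above Rab32 at 303 ± 83.6, whereas in no UV libraries Rab32 averaged 593 ± 98.3, above Mreg at 393 ± 94.2 (SD, n = 2 each). Mlph averaged 21.2 in UV libraries, above Sytl2 at 3.65, and 1.85 in no UV libraries, below Sytl2 at 4.61.

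Most of the 8 genes belong to small families, and the shares of their paralogues differed between the sorted populations in several of them. Of 13 paralogues fixed in a list, 12 were tested, of which 0 were higher and 4 lower in EGFP+ cells over all mice, against 9.66% and 19.2% of all genes, with a list median of -1.60. Rab27b, the other Rab27, stood at -7.10 ± 0.95 (limma adjusted p = 0.000790), and all its 17 EGFP+ reads were in no UV EGFP+ replicate 2. The difference of Rab27b was -9.61 with a pseudocount of 0.1, -8.12 without that library and -6.07 without no UV EGFP+ replicate 1. Rab27a made up 99.5% to 100% of Rab27 level per kilobase in EGFP+ libraries, against 22.1% to 48.6% in tdTomato+ libraries. Exph5, which encodes another Rab27 effector of the Slac2 family of linkers, stood at -6.61 ± 0.70 (limma adjusted p = 0.000224), from 3 reads in EGFP+ and 673 in tdTomato+ libraries (252-fold, with a 95% counting interval of 85.9 to 1225), and at -8.11 with a pseudocount of 0.1. Mlph was 99.7% to 100% of the Slac2 linkers per kilobase in EGFP+ libraries, 58.1% and 78.5% in UV tdTomato+ and 7.0% and 6.15% in no UV tdTomato+ libraries.

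Sytl1, a synaptotagmin-like Rab27 effector, stood at -7.47 ± 0.56 (limma adjusted p = 3.59e-05). It made up 81.4% to 96.8% of its family per kilobase in tdTomato+ libraries, where Sytl2 had 0.716% to 4.26%, while Sytl2 had 87.2% to 98.4% in EGFP+ libraries. Syngr2, the broadly expressed synaptogyrin, stood at -0.64 ± 0.13 over all mice (limma adjusted p = 0.00594), with populations that overlapped. In UV mice it was lower by 1.13 log2 units (limma adjusted p = 0.00394), with 1815 and 1779 in EGFP+ against 3879 and 3966 in tdTomato+ libraries. In no UV mice it stood at -0.16 ± 0.18 (0.592), with 1959 and 1581 in EGFP+ against 2015 and 1921 in tdTomato+ libraries. The difference of its UV changes, -0.96 ± 0.26, was not called (limma adjusted p = 0.310). Syngr1 was 72.3% to 75.1% of synaptogyrins per kilobase in EGFP+ libraries, against 2.32% to 10.2% in tdTomato+ libraries. In the myosin and Rab32 families the leading gene was the same in both populations. Myo5a was 97.6% to 100% of class V myosins in EGFP+ and 86.4% to 96.8% in tdTomato+ libraries, and Rab38 was 59.7% to 71.5% of the group of Rab32, Rab38 and Rab29 in EGFP+ and 48.1% to 66.0% in tdTomato+ libraries.

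**Figure D3:**
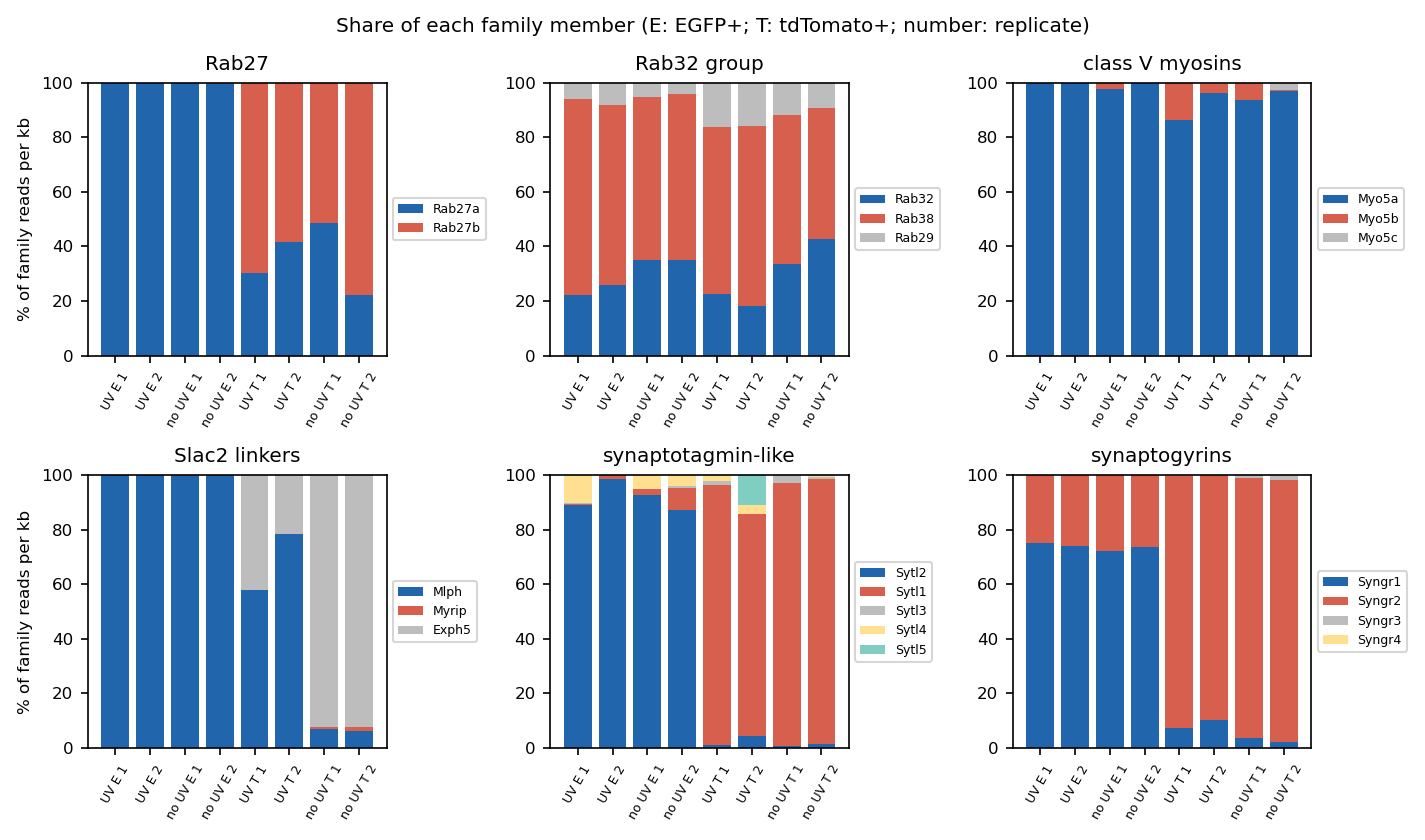
Share of each gene family, in percent of the family's summed normalized reads per kilobase, in each of the 8 libraries, with EGFP+ libraries left of tdTomato+ libraries. Rab27a, Mlph, Sytl2 and Syngr1 take most of their families in EGFP+ libraries, while Rab27b, Sytl1 and Syngr2 take most in all tdTomato+ libraries and Exph5 in the no UV tdTomato+ libraries.

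UV against no UV in EGFP+ cells called 0 of the 8 genes, against 0.0166% of all genes (3, all lower) by limma, with 1875 genes at an unadjusted p under 0.05. By edgeR and DESeq2 the counts over all genes were 120 and 355, and of the 8 genes edgeR called 0 and DESeq2 called 1, Rab38. Rab38 stood at 0.81 ± 0.21 log2 units or 1.76-fold, with 4064 and 3085 in UV against 2086 and 1950.0 in no UV libraries (limma adjusted p = 0.265, 0.0469 by DESeq2). Mlph stood at 0.81 ± 0.41 (limma adjusted p = 0.535) and Sytl2 at 0.98 ± 0.71 (0.661). In these 3 genes every UV value was above every no UV value, against 12.7% of all genes. The libraries of the other 5 overlapped. Rab27a (0.05 ± 0.40), Rab32 (0.08 ± 0.25), Syngr1 (0.14 ± 0.28), Myo5a (-0.01 ± 0.28) and Mreg (-0.38 ± 0.52) had 95% intervals that reached from at most -0.49 to at least 0.64, so that a change of that size in either direction was within error.

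In tdTomato+ cells, Mlph and Syngr1 rose with UV, 2 of 8 genes against 0.349% of all genes higher, and 0 fell, against 0.21%. Mlph was higher by 3.33 ± 0.41 or 10.0-fold (limma adjusted p = 0.0211) and Syngr1 by 2.64 ± 0.28 or 6.23-fold (0.0144). Both calls held without UV EGFP+ replicate 1 (0.0301 and 0.0222) and without no UV tdTomato+ replicate 1 (0.0244 and 0.00565). They were missed without UV EGFP+ replicate 2 (0.0742 for Mlph and 0.0705 for Syngr1), no UV EGFP+ replicate 1 (0.112 and 0.114) or 2 (0.126 for both), UV tdTomato+ replicate 1 (0.143 and 0.164) or 2 (0.105 and 0.126), and no UV tdTomato+ replicate 2 (0.0730 and 0.0595). In a fit of tdTomato+ libraries alone that of Mlph was 0.110. Rab32 stood at -0.98 ± 0.25 (limma adjusted p = 0.142, 0.0334 by DESeq2), with both UV values below both no UV values. Myo5a (0.43 ± 0.28) and Rab38 (0.23 ± 0.21) had UV values above no UV values without passing, and Rab27a (0.33 ± 0.40), Sytl2 (-0.28 ± 0.71) and Mreg (0.28 ± 0.52) overlapped. Without overlap, 4 of the 8 genes were thus higher and 1 lower in UV libraries, against 21.6% and 24.5% of all genes.

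Melanocyte markers moved with that result. In tdTomato+ cells 7 of the 10 rose with UV and 0 fell, with a median of 3.11 log2 units. Their sum was 24003 and 45527 in UV libraries, against 5648 and 2675 in no UV libraries, and none of the 10 was at 0 throughout. Tyr had 1169 and 2496 in UV and 469 and 196 in no UV tdTomato+ libraries, Dct 10214 and 17032 against 2733 and 1270.3, and Mlana 1012 and 1789.7 against 145 and 97.1. As a percent of the EGFP+ library of the same mouse, the sum in the tdTomato+ library was 4.14% and 7.22% in UV mice, against 1.05% and 0.445% in no UV mice. Mlph was at 3.69% and 6.28% in UV mice, against 0.686% and 0.866% in no UV mice, and Syngr1 at 5.76% and 8.82%, against 1.52% and 1.04%. The median of the 10 markers was 4.70% and 7.21% in UV mice, against 1.20% and 0.436% in no UV mice. Syngr1 was above that median in all 4 mice, and in mouse 4 also above the highest marker (7.78%). Mlph was below it in both UV mice and in mouse 1, and above it in mouse 2.

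Among the other 6 genes, the percentages of Myo5a were slightly higher in UV mice, and those of Rab38 and Rab32 were lower in UV mice. The arms overlapped for Rab27a, Sytl2 and Mreg. Rab27a was at 3.87% and 5.83% in UV mice, against 5.04% and 3.02% in no UV mice, and Myo5a at 11.0% and 11.3%, against 10.6% and 6.39%. Rab38 was at 38.3% and 45.1% in UV mice and 64.4% and 60.2% in no UV mice, and Rab32 at 45.2% and 31.8% against 67.4% and 93.4%. Sytl2 was at 3.53% and 9.92% in UV mice and 5.06% and 40.6% in no UV mice, and Mreg at 712% and 187% against 142% and 372%. Set per 1000 reads of the summed markers, Mlph had 3.69 and 3.75 in UV EGFP+ and 2.66 and 1.92 in no UV EGFP+ libraries, and 3.28 and 3.26 in UV tdTomato+ and 1.73 and 3.74 in no UV tdTomato+ libraries, so that the populations overlapped. Syngr1 had 25.6 and 21.8 in UV EGFP+ and 25.9 and 20.1 in no UV EGFP+ libraries, and 35.6 and 26.7 in UV tdTomato+ and 37.2 and 47.0 in no UV tdTomato+ libraries, all 4 of the tdTomato+ values being higher.

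Markers of other cell types differed between the same tdTomato+ libraries. Of 8 keratinocyte markers 0 were higher and 2 lower with UV, with a list median of -0.55. They were the keratins of differentiating epidermis, Krt1, with 54.1 and 16.7 in UV against 5874 and 10598 in no UV libraries, and Krt10, with 673 and 350.5 in UV against 12359 and 18394 in no UV libraries. Of 7 leukocyte markers 0 were higher and 1 lower (median -1.73), namely Cd207 of Langerhans cells, with 0 in both UV against 1237 and 271 in no UV libraries. Limma called 0 of the 6 fibroblast (median -1.77), 5 endothelial and mural (2.14) and 5 Schwann cell markers (1.09). Krt1, Krt10 and Cd207 were not named by the rule but picked once their values were known. The part of melanocyte transcripts, and of other changes in the cells sorted as tdTomato+, in the UV difference of Mlph and Syngr1 was not tested.

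**Figure D4:**
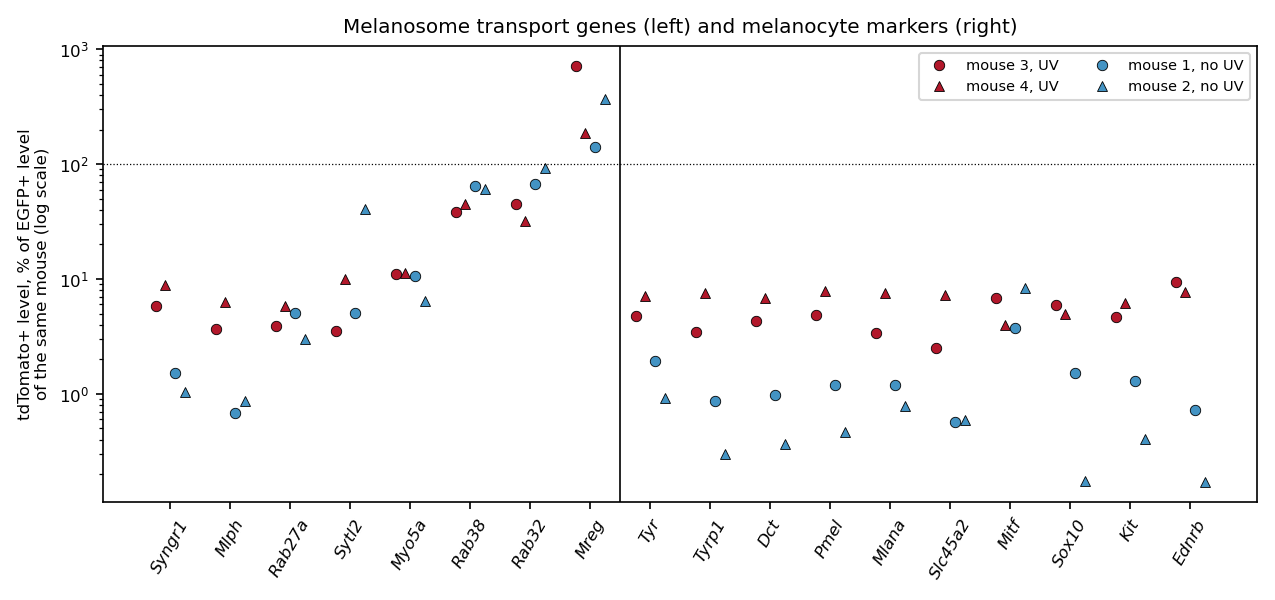
Level in the tdTomato+ library as a percent of the EGFP+ library of the same mouse, on a log10 axis, for the 8 genes (left) and 10 melanocyte markers (right), with 1 point per mouse and a dotted line where both libraries are equal. Mlph and Syngr1 lie between 3.69% and 8.82% in UV mice and between 0.686% and 1.52% in no UV mice, Rab27a stays between 3.02% and 5.83% in all 4 mice, and Mitf is the one marker whose UV and no UV points overlap.

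The difference between the UV changes of EGFP+ and tdTomato+ cells, tested as an interaction, passed for 0 of the 8 genes by limma, against 0.00553% of all genes (1 gene, with 1814 at an unadjusted p under 0.05). Over all genes edgeR called 75 and DESeq2 286. Syngr1 stood at -2.50 ± 0.39 with a limma adjusted p of 0.162, and passed with quantile normalization (0.0450), edgeR (0.00528), DESeq2 (1.12e-05) and in fits that left out the first library of UV EGFP+ (0.0248) or of no UV tdTomato+ cells (0.0176). Mlph stood at -2.52 ± 0.57 (limma adjusted p = 0.263), and passed with edgeR (0.0268) and DESeq2 (0.00284). Rab32 stood at 1.07 ± 0.35 (limma adjusted p = 0.389), Sytl2 at 1.27 ± 1.00 (0.690) and Rab38 at 0.58 ± 0.29 (0.549). Rab27a, Myo5a and Mreg stood at -0.28 ± 0.56, -0.44 ± 0.40 and -0.67 ± 0.73.

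Genes that work beside the 8 were followed in 4 more lists, whose counts stand against 9.66% of all genes higher and 19.2% lower in EGFP+ cells. Of 12 genes for Rab activation, inactivation and prenylation, 2 were higher and 0 lower in EGFP+ cells over all mice, with a median of 0.15. Hps4, a subunit of the activator of Rab32 and Rab38, was higher by 2.62 ± 0.36 (limma adjusted p = 0.000864), at 345 and 616 in UV EGFP+ and 368 and 391 in no UV EGFP+ libraries, against 77.0 and 60.3 in UV tdTomato+ and 91.9 and 47.1 in no UV tdTomato+ libraries. Its partner Hps1 had 268 and 30.2 in UV EGFP+ and 265 and 252 in no UV EGFP+ libraries, UV EGFP+ replicate 2 being the odd one. In tdTomato+ libraries Hps1 had 78.8 and 55.6 with UV and 70.4 and 87.1 without, and it was not called over all mice. Tbc1d10a, whose product inactivates Rab27a, was higher by 0.63 ± 0.18 (limma adjusted p = 0.0288), a call that held in 2 of 8 fits without 1 library.

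Of 12 genes for actin tracks, other actin motors and filopodia, 5 were higher and 2 lower, with a median of 0.62. Myo10, a motor of filopodia, was higher by 2.36 ± 0.21 (limma adjusted p = 9.30e-05), with 1452 and 2300.0 in UV EGFP+ and 1674 and 1995 in no UV EGFP+ libraries, against 305 to 418 in tdTomato+ libraries. Fmn1, a formin that builds actin filaments, was higher by 3.04 ± 0.33 (0.000279). Myo7a, a melanosome motor of the retinal pigment epithelium, was higher by 4.97, and Spire1, an actin nucleator, by 2.16 (limma adjusted p = 0.000945). Spire1 lies outside the naming rule and was chosen after its values were seen. The lower genes were Dynll1, a light chain of dynein, at -1.60 ± 0.14 (7.67e-05), and Rab11a at -1.05 ± 0.12 (0.000309). Rab11a is a recycling endosome GTPase that has been tied to actin-based dispersal and transfer of melanosomes. Dynll2, a related light chain in the same list, was not called, with means of 669 in EGFP+ and 619 in tdTomato+ libraries.

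Of 17 microtubule motors and adaptors 7 were higher and 0 lower, with a median of 0.43. They included Plekhm2, an adaptor that couples kinesin to vesicles (2.84 ± 0.29, limma adjusted p = 0.000176), Klc1, a kinesin light chain (1.84 ± 0.26, 0.00104), and the dynein chains Dync1li1 (1.89 ± 0.26, 0.000877) and Dync1h1 (0.88 ± 0.18, 0.00636). Of 9 genes for secretion, transfer and uptake 0 were higher and 1 lower, with a median of -0.07. That gene was F2rl1, a receptor that promotes the uptake of melanosomes by keratinocytes, which had 0 reads in EGFP+ against 968 in tdTomato+ libraries and was at least 363-fold lower, taking 3 reads over the EGFP+ group as the floor. Across the 5 lists, paralogues included, 14 of 62 tested genes were higher and 7 lower, against 9.66% and 19.2% of all genes, and 0 were called in either UV comparison or in the difference by limma. Of those 21 genes, 16 held in all 8 fits without 1 library. The other 5 were Myo6, Rab7, Dctn1, Dctn2 and Tbc1d10a, whose highest limma adjusted p was 0.178 (without UV tdTomato+ replicate 1), 0.157 (without no UV EGFP+ replicate 1), 0.0938 (without no UV EGFP+ replicate 2), 0.0862 (without UV tdTomato+ replicate 1) and 0.137 (without UV tdTomato+ replicate 2).

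**Figure D5:**
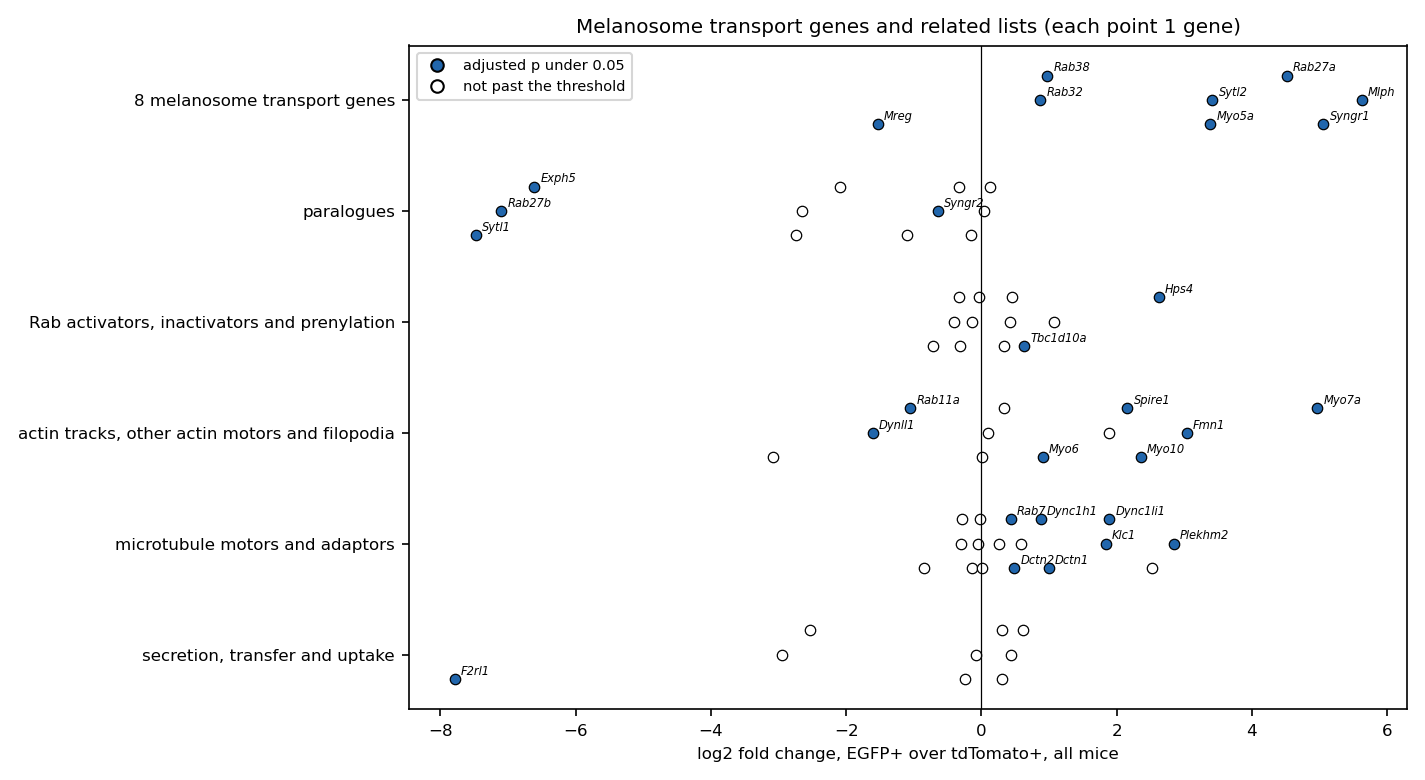
Difference between EGFP+ and tdTomato+ cells over all mice, on the log2(normalized reads + 1) scale, for the 8 genes and the 5 lists, with 1 point per tested gene and filled points for an adjusted p under 0.05. The 8 genes have 7 filled points right of 0, the paralogues 4 filled points left of 0, and the microtubule genes 7 filled points right of 0.

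The genes whose levels were most like each of the 8 were ranked by Pearson's r of log2(value + 1) over the 8 libraries, which share the split between the sorted populations. For Mlph they were Mlana (0.997), Gja5 (0.996) and Ctsz (0.994), and for Syngr1 they were Kit (0.997), Dct (0.997) and Pmel (0.996). For Rab27a they were St3gal6 (0.998), Cyp2j6 (0.995) and Celf2 (0.995), for Myo5a Scpep1 (0.999), Mgat4b (0.997) and Enho (0.997), and for Sytl2 Tmem55a (0.986), Zfp580 (0.985) and Hvcn1 (0.979). For Rab38 they were Cyp39a1 (0.982), Atp6v0d1 (0.970) and Glmp (0.964), for Rab32 Tshz1 (0.957), Mkl2 (0.957) and Ptpra (0.956), and for Mreg Dnajc2 (0.986), Dusp8 (0.976) and Mpp6 (0.971). The values for Rab32 were the lowest of the 8. Melanocyte markers stood among the nearest genes of Mlph and Syngr1, the genes that were higher in tdTomato+ cells of UV mice.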

How the data were processed

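RNA of sorted EGFP+ and tdTomato+ cells (1 µg of total RNA, oligo-dT enrichment, an unstranded kit) gave 8 libraries. The submitters' processing notes name FastQC, DESeq2 1.14.1, TopHat2 2.0.12, Cufflinks 2.2.1 and mm10, while the read counter and its annotation were not given in the sources used here. Signal values, called normalized by the file headers, were deposited by the authors. Each is a whole number of reads over 1 factor per library (195368 of 195368 values within 0.01 of a whole read, 100%, with factors of 0.701 to 1.2). The deposited log2 fold changes, their score and p-value columns, per the file headers, are the authors' own and were only set beside the results.

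Because these values are normalized, limma 3.58.1 (R 4.3.3) was the test, as the plan had it for such values (edgeR being for raw counts). Values were taken as log2(value + 1) and fitted with group means, all 8 libraries and a trended prior. A gene was tested where its mean reached 1 in any group (18070 genes), with Benjamini-Hochberg adjustment over all of them and a threshold of 0.05. There were 4 residual degrees of freedom (median 8.4 after moderation). edgeR 4.0.16 and DESeq2 1.42.0 on the recovered reads, other scalings, filters and pseudocounts, the libraries compared alone, a replicate block and each library left out in turn were alternatives. Levels per kilobase use GENCODE exon lengths, pooled over all annotated transcripts of a gene. The order of genes and the family shares depend on these lengths, which are not those of the transcripts present. Bounds take 3 reads as the floor, and read intervals (95%) reflect counting alone.

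Mouse numbers in the labels pair the EGFP+ and tdTomato+ cells of a mouse. Across genes, deviations of such pairs from group means correlated at r = 0.0873 (mice 1 and 2) and 0.0562 (mice 3 and 4).

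The 8 genes and the lists were chosen with earlier results of these data known. Besides the 8, genes were named by a rule: up to 4 of each list with the smallest p in EGFP+ against tdTomato+ cells, up to 2 with the smallest p in each UV comparison, the 3 most alike per gene, and Tyr, Dct and Mlana. Genes singled out for a lost call outside that rule were chosen after their values were seen.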

Additional observations from a re-analysis of the deposited data

How the results depend on the processing

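Of 800 values of the 8 genes under alternatives, 730 kept direction and side of the threshold, 40 lost a call, 18 gained one and 12 changed sign. The sign changes were all in uncalled differences: Rab27a under UV in EGFP+ cells was -0.0208 after rescaling without the 20 most abundant genes (0.05 as reported), and leaving out 1 library gave -0.0261 to 0.13 there, -0.0879 to 0.75 for Rab27a under UV in tdTomato+ cells and -0.70 to 0.14 for its difference. Likewise Myo5a under UV in EGFP+ cells ran from -0.28 to 0.26, Mreg there from -1.15 to 0.38 and its difference from -1.43 to 0.0948, and Sytl2 under UV in tdTomato+ cells from -1.0 to 0.43. The cause was not tested.

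Quantile normalization moved called values over all mice to 6.37 for Mlph, 5.32 for Rab27a, 4.24 for Sytl2, 3.28 for Hps4 and 5.89 for Myo7a, and to 4.09 for Mlph under UV in tdTomato+ cells.

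Counts over all genes moved most in the UV comparisons. In a fit of the compared libraries alone, 1992 genes differed between populations in UV mice, 0 with UV in EGFP+ and 183 in tdTomato+ cells. For UV in EGFP+ cells quantile normalization gave 16, a pseudocount of 0.1 gave 1, edgeR 120 and DESeq2 355. For UV in tdTomato+ cells they gave 218, 29, 240 and 617, and for the difference 14, 0, 75 and 286, with 0 after rescaling or with no filter. Of the 8 genes, DESeq2 called 1 with UV in EGFP+ cells, the compared libraries alone 1 in tdTomato+ cells, and for the difference quantile normalization gave 1, edgeR 2 and DESeq2 2. Leaving out each library gave 3463 to 6594 genes over all mice, 993 to 4952 in UV and 1398 to 4494 in no UV mice, 0 to 1604 with UV in EGFP+ and 0 to 1772 in tdTomato+ cells, and 0 to 1297 for the difference. Of the 8 genes these fits called 7 to 8, 4 to 8, 4 to 7, 0, 0 to 2 and 0 to 1.

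With a replicate block for mouse, 8 of the 8 genes were called over all mice, 8 in UV mice, 6 in no UV mice (Rab38 added, at 0.0496) and 0 for the difference, out of 5221, 3190, 3288 and 1 genes. UV and no UV mice share only numbers (r = 0.0549 in EGFP+ and 0.0759 in tdTomato+ cells), and a block by number left 0 and 2 of the 8 genes called, out of 2 and 70 genes. With 2 mice a group, an uncalled change under UV was not shown to be absent, and sizes inside its interval were within error. Exph5, Sytl1, Rab27b and F2rl1 rest on 0 to 17 reads in EGFP+ cells.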
